A study of Ictidomys tridecemlineatus with 31 samples.

Results

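The BCL-2 family regulates the mitochondrial route to apoptosis, and 10 of its genes were examined here in the kidney of the 13-lined ground squirrel, Ictidomys tridecemlineatus. The members were chosen by symbol: the prosurvival genes Bcl2, Bcl2l1, Bcl2l2 and Mcl1 and the proapoptotic genes Bak1, Bax, Bok, Bcl2l11, Bad and Bid. All 10 of 10 had a row among the 12863 genes of the deposited table, and where a symbol had several rows the one with the highest mean was used. Bcl2l1 had 3 such rows, with means of 11.60, 7.44 and 6.57 on the log2 scale, and the first was kept.

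Polyadenylated RNA from a fragment of each frozen kidney was sequenced from 31 squirrels of both sexes (17 females and 14 males), 1 animal per library, in 6 physiological states, in 2 experiments with different library kits. Summer active (SA) animals were warm and outside the hibernation season, and spring dark (SpD) animals were warm at the end of hibernation while still kept in the dark. The other 4 states came from the hibernation season, in which long bouts of torpor alternate with short warm periods: interbout aroused (IBA) animals were warm between torpor bouts, entrance (Ent) animals were cooling into torpor, EAr animals were cold at the start of arousal, and LAr animals were later in arousal and still rewarming. All were fitted with implanted temperature devices, and each state was sampled in different animals, so no animal was followed over time.

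Experiment 1 held 9 animals of IBA, Ent and SpD, and experiment 2 held 22 animals of all 6 states, so SA, EAr and LAr were seen with 1 library kit only. K113 of LAr and K137 of SA were left out of the tests, as in the study's own analysis, and are given apart. The study found both to be outliers in clustering and describes them as apparent timing variants, ahead in their transition. The tests therefore used 29 animals, 4 of SA and 5 of each other state. By the share of genes in which an animal lay outside the range of the rest of its state, K113 (72.9%), K8 of Ent (66.7%), K137 (63.4%) and K130 of SpD (61.1%) stood furthest apart. Kidney markers were present as labelled: all 6 proximal tubule markers were in the table, and 0 of 3 adrenal cortex markers were. The fragments can differ in the parts of the kidney they hold, and in bulk tissue, fewer cells of a type and less RNA per cell cannot be told apart.

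BCL-2 proteins decide whether the outer mitochondrial membrane is opened. BAX and BAK, the products of Bax and Bak1, form the pores that release cytochrome c, and the prosurvival proteins BCL-2, BCL-XL (Bcl2l1), BCL-W (Bcl2l2) and MCL-1 hold them in check. BH3-only proteins such as BIM (Bcl2l11), BAD and BID carry stress signals to this switch, BIM by binding all of the prosurvival proteins, and in the kidney the pathway is best known from injury to tubule cells after ischemia and reperfusion.

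All values are the authors' rlog values, that is, regularized log2 expression after removal of the difference between experiments. A difference of 1 is a doubling, rlog pulls the differences of weakly expressed genes toward 0, and because the values are not scaled by transcript length they were compared between states and animals only, never between genes. Differences and folds below come from a limma fit with state, sex and experiment as terms, with q the Benjamini-Hochberg adjusted p over all 12863 genes, and a member was called DE at q below 0.001, with q below 0.05 given as a second threshold.

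Transcripts of 3 proapoptotic members, Bcl2l11, Bak1 and Bax, were highest in IBA. None of the 4 prosurvival members passed either threshold between IBA and the other hibernation states. Across the 6 states 1 of 10 members, Bcl2l11, was called at q below 0.001, where 9.34% of all genes were. At q below 0.05 the members were 3 of 10, with Bak1 and Bax added, where 46.1% of all genes were called, so the share of members called was not above that of all genes at this threshold. The state means of a member spanned a median of 0.37 (0.15 to 0.73) against 0.32 over all genes, and the residual SD was 0.15 in the median member and 0.16 in the median gene.

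**Figure D1:**
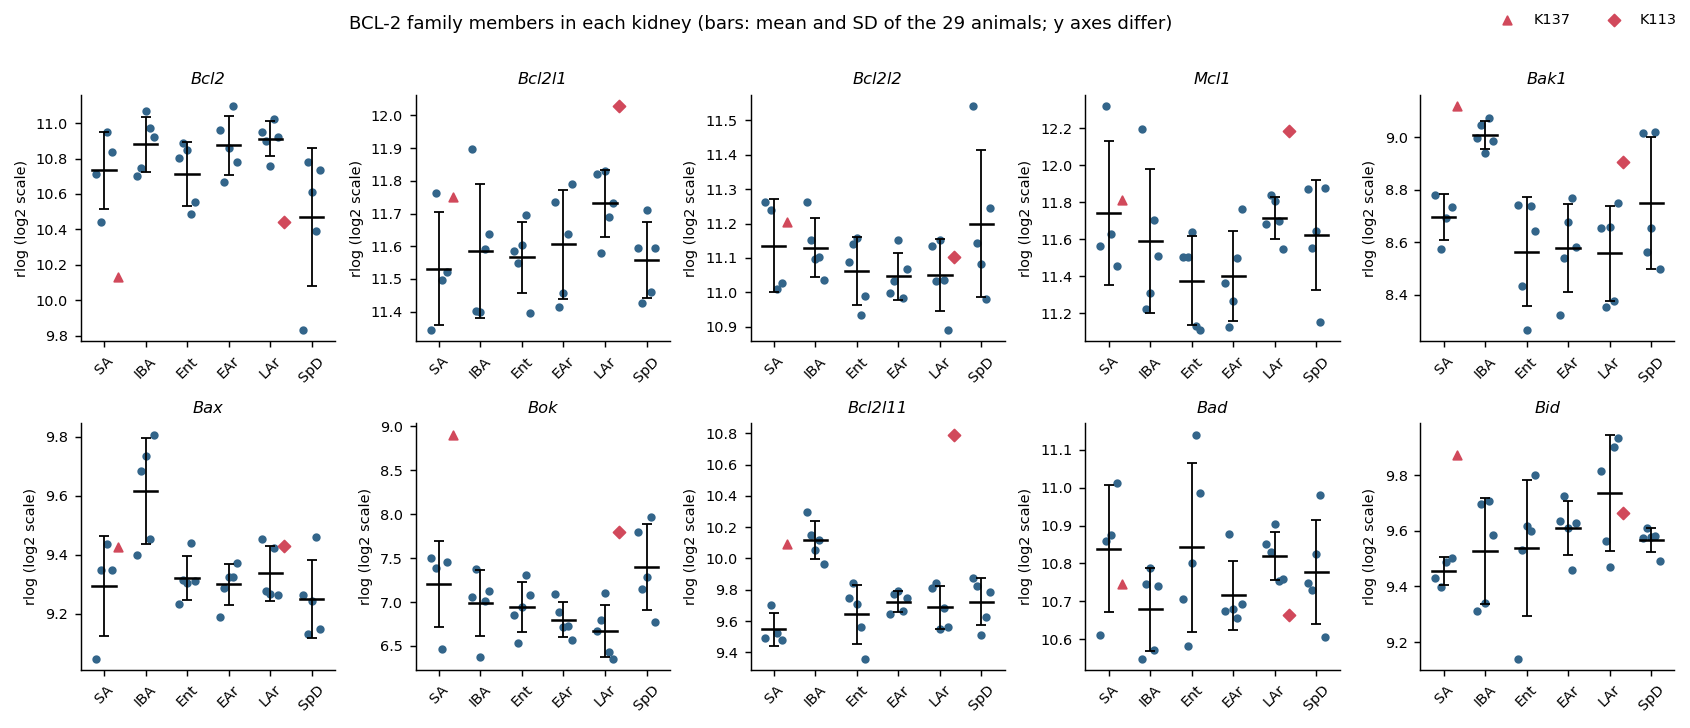
rlog values (log2 scale, y axes differ) of the 10 BCL-2 members in every kidney, by state. Blue points are the 29 animals tested, black lines their mean and SD, and red symbols K137 and K113. Bcl2l11, Bak1 and Bax have their highest mean in IBA, and K113 has the highest Bcl2l11 of all 31 animals at 10.79.

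Bcl2l11 encodes BIM, a BH3-only activator of BAX and BAK. In the IBA animals its rlog values were 10.30 in K1, 10.15 in K104, 10.12 in K4, 10.06 in K171 and 9.97 in K7. Ent animals ranged from 9.36 to 9.84, EAr from 9.64 to 9.79 and LAr from 9.55 to 9.84. All 5 IBA animals therefore lay above all 15 animals of the other hibernation states, and also above the 4 SA animals (9.48 to 9.70) and the 5 SpD animals (9.51 to 9.87). Against the mean of Ent, EAr and LAr, Bcl2l11 was 0.47 ± 0.08 (SE) higher in IBA on the log2 scale, a fold of 1.39 (95% interval of the log2 difference 0.31 to 0.63, q = 0.0001445).

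The gene stood at q = 0.0004067 across the 6 states (F = 10.13). Among the pairs, the difference between IBA and SA was 0.63 ± 0.10 (SE), a fold of 1.55 (q = 0.0001526). The move from IBA into entrance was a fall by 0.47 ± 0.09 (SE, q = 0.001275), IBA exceeded LAr by 0.48 ± 0.10 (SE, q = 0.00176), and SpD was below IBA by a log2 difference of -0.39 ± 0.09 (SE, q = 0.004284). Only the IBA-SA pair passed q below 0.001. The other 5 states lay close together: their means ran from 9.55 in SA to 9.72 in SpD and EAr, with Ent at 9.64 and LAr at 9.69, and no neighbouring pair in this order was separated by more than the larger SD of the 2 states.

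Both animals shown apart had high Bcl2l11. K113 reached 10.79, above every other animal of the series and 1.10 above the mean of the other LAr animals, and K137 reached 10.09, inside the IBA range. With both included, the IBA excess over the other hibernation states was 0.42 (q = 0.04424), the IBA-LAr difference was 0.31 (q = 0.2777), the IBA-SA difference was 0.52 (q = 0.06359) and the test across states gave q = 0.101. The Bcl2l11 calls therefore rest on leaving these animals out, while the direction did not change. Without K104 the IBA-SA difference had q = 0.001007 and the IBA excess over the other hibernation states had q = 0.001221. Without K8 that excess was 0.43 (q = 0.000197) and without K130 it was 0.46 (q = 0.0002542).

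Within each experiment the direction was the same for Bcl2l11. IBA was higher than Ent by 0.58 in experiment 1 (3 animals each) and by 0.31 in experiment 2 (2 animals each), and higher than SpD by 0.42 and 0.36. In experiment 2 alone the IBA excess over Ent, EAr and LAr was 0.37 for Bcl2l11 (q = 0.0267), while its Ent-IBA difference (-0.31, q = 0.2216) and SpD-IBA difference (-0.36, q = 0.07061) no longer passed q below 0.05.

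Bak1 and Bax encode the pore-forming effectors BAK, resident on mitochondria, and BAX, which moves there from the cytosol. Bak1 was narrow in IBA, with rlog values of 9.07 in K4, 9.05 in K104, 9.0 in K1, 8.99 in K7 and 8.94 in K171. Ent animals ranged from 8.27 to 8.74, EAr from 8.32 to 8.77 and LAr from 8.35 to 8.75. The IBA animals again lay above all 15, and the difference from these states was 0.50 ± 0.09 (SE), a fold of 1.42 (95% interval 0.31 to 0.70, q = 0.0006112). Leaving out K1, K104, K4, K7, K2, K111, K156 or K165 in turn, the q of this difference rose to between 0.001003 and 0.003018, and in all 31 animals it was 0.003208. With no term for experiment the Bak1 difference was 0.44 (q = 0.001654), and with median centring 0.47 (q = 0.001185). In experiment 2 alone it was 0.44 (q = 0.03724).

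SpD animals were mixed for Bak1. K130 and K84 stood at 9.02 each, inside the IBA range, and K6, K3 and K9 were at 8.65, 8.56 and 8.50. The first pair were the SpD animals of experiment 2, and the others those of experiment 1, so IBA exceeded SpD by 0.45 in experiment 1 and differed by -0.02 in experiment 2. The pooled SpD-IBA difference was -0.26 ± 0.11 (SE, q = 0.115). Bak1 was higher in IBA than in SA by 0.41 ± 0.13 (SE, q = 0.02247), with no overlap between the 5 IBA and 4 SA animals. K137 had the highest Bak1 of all 31 animals (9.12), K113 was at 8.91, and with both included the IBA-SA value was 0.32 (q = 0.1247). Without K139 it was 0.36 (q = 0.06662), and in experiment 2 alone it was 0.32 (q = 0.09901). With no term for experiment it was 0.31 (q = 0.05564). The Ent-IBA difference of Bak1 was -0.44 ± 0.11 (SE, q = 0.009209), and -0.43 in experiment 2 alone (q = 0.1973).

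Bax was more spread in IBA, at 9.81 in K7, 9.74 in K171, 9.68 in K104, 9.45 in K4 and 9.40 in K1. K1 overlapped with the other hibernation states, which ranged from 9.19 to 9.45, and K4 lay just above them. The mean difference was 0.33 ± 0.07 (SE), a fold of 1.26 (95% interval 0.19 to 0.48, q = 0.001844), short of the stricter threshold. Bax fell by 0.30 ± 0.08 (SE) from IBA to Ent (q = 0.01804), a call lost without K155 (-0.25, q = 0.05001) or K7 (-0.23, q = 0.05732), and was lower in SpD than in IBA by a difference of -0.37 ± 0.08 (SE, q = 0.004687). In experiment 2 alone the Bax differences were -0.43 for Ent against IBA (q = 0.1168) and -0.34 for SpD against IBA (q = 0.07834), and neither call held. The Bax excess of IBA over the other hibernation states changed little with K113 and K137 included, at 0.33 (q = 0.002939).

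Taking IBA against Ent, EAr and LAr, 2 members were higher in IBA at q below 0.001, where 2.46% of all genes were, and 3 at q below 0.05, where 14.1% were. The 2 members with no overlap between IBA and these states compared with 2.15% of all genes in that direction. Larger differences than that of Bak1 were seen in 382 genes (2.97%), than that of Bcl2l11 in 480 (3.73%) and than that of Bax in 1115 (8.67%). The median member differed by 0.07 and the median gene by 0.00. The study had already placed Bak1, Bax and Bcl2l11 in its cluster of genes high in IBA, from these animals. That clustering held genes passing q below 0.001 across states in the study's own count test. In the present fit Bak1 (q = 0.005822) and Bax (q = 0.006606) did not reach that threshold across the 6 states. The members were chosen with earlier results known, so these shares are not an independent test.

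**Figure D2:**
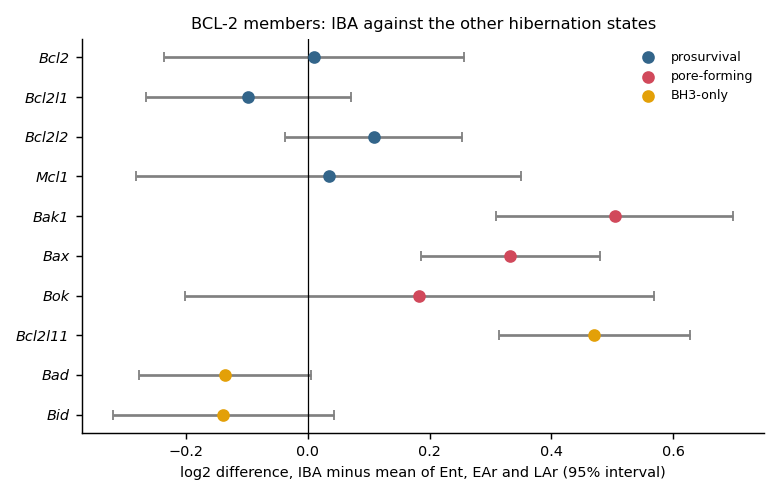
log2 difference of each BCL-2 member between IBA and the mean of Ent, EAr and LAr, with its 95% interval from limma, coloured by role. The intervals of Bak1, Bcl2l11 and Bax lie above 0, and those of the other 7 members include 0.

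**Figure D3:**
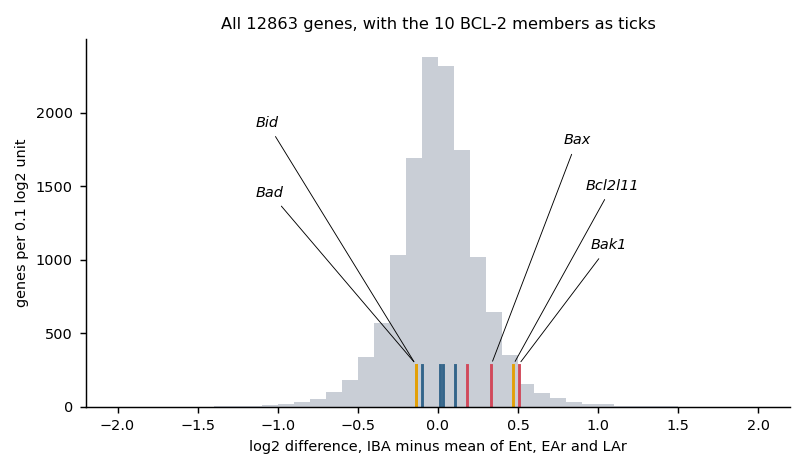
Number of genes per 0.1 log2 unit for the difference between IBA and the mean of Ent, EAr and LAr (grey bars), with the 10 BCL-2 members as ticks coloured by role (blue prosurvival, red pore-forming, yellow BH3-only). Bak1, Bcl2l11 and Bax lie in the upper tail, and Bid and Bad lie below 0 near the centre.

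Cell type markers were compared in the same contrast, and only Slc27a2 and Csf1r passed q below 0.05. At that threshold 14.1% of all genes were higher in IBA. The 6 proximal tubule markers, averaged within animals, had their lowest state mean in IBA (14.32, range 13.78 to 14.65), against 14.57 to 15.24 in the other states. All 6 were at lower values in IBA than in the other hibernation states, and 1 of them, Slc27a2, passed q below 0.05. The 4 macrophage markers averaged 8.75 in IBA (range 8.38 to 9.48) against state means of 8.35 to 8.87 elsewhere, with 3 of the 4 at higher values in IBA than in the other hibernation states. Of these Csf1r passed q below 0.05 (0.71, q = 0.01173), C1qa (0.38) and C1qb (0.37) did not, and Cd68 was at -0.24 (q = 0.3218). All 4 fibroblast markers and all 4 endothelial markers were at higher values in IBA, none past q below 0.05, among them Col1a1 at 0.64, Pdgfra at 0.49 and Pecam1 at 0.33. The distal convoluted tubule marker Slc12a3 differed by -0.65 (q = 0.1228), and the lymphocyte marker Cd79a by -0.26 (q = 0.4579). Loop of Henle, principal cell and intercalated cell each had 1 marker at higher and 1 at lower values in IBA. The part of these marker differences in the Bcl2l11, Bak1 and Bax values was not tested.

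The remaining proapoptotic members did not pass the threshold in this contrast. Bad, which is held inactive by phosphorylation and 14-3-3 binding, differed by -0.14 (95% interval -0.28 to 0.01, q = 0.146), and Bid, which is activated by caspase-8, by -0.14 (interval -0.32 to 0.04, q = 0.2508). Bok, a BAX-like protein that is degraded rapidly under resting conditions, differed by 0.18 (interval -0.20 to 0.57, q = 0.4943). Of the 3 BH3-only members only Bcl2l11 passed either threshold here, and whether it differed from Bad and Bid in this response was not tested.

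Bok varied most among members, with a residual SD of 0.35 and the widest span of state means, from 6.67 in LAr to 7.40 in SpD. SpD animals were at 7.97 in K84, 7.80 in K130, 7.29 in K6, 7.15 in K3 and 6.77 in K9, and LAr animals ranged from 6.36 to 7.10. K137 had the highest Bok of the series at 8.91, which was 1.70 above the mean of the other SA animals, and K113 was at 7.80, 1.13 above the other LAr animals. Both values are of animals left out of the tests. Bok is weakly expressed on this scale.

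The 4 prosurvival genes were compared over the same states. Their differences between IBA and the other hibernation states were 0.01 for Bcl2 (95% interval -0.24 to 0.26), -0.10 for Bcl2l1 (-0.27 to 0.07), 0.11 for Bcl2l2 (-0.04 to 0.25) and 0.03 for Mcl1 (-0.28 to 0.35). These intervals leave room for changes of up to about the size seen for Bax in the case of Mcl1. The q values were 0.9598 for Bcl2, 0.395 for Bcl2l1, 0.2687 for Bcl2l2 and 0.8869 for Mcl1.

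Averaged within animals, the 4 prosurvival genes had state means from 11.18 in Ent to 11.35 in LAr, with SDs between 0.05 and 0.14. The 6 proapoptotic genes averaged 9.32 in IBA, 9.24 in SpD, 9.17 in SA and between 9.12 and 9.14 in the other states. SDs of this average ran from 0.04 in EAr to 0.16 in SpD. The IBA animals (9.20 to 9.45) overlapped with those of SpD (9.05 to 9.44) and Ent (9.04 to 9.30). Bcl2l11, Bak1 and Bax are among the 6 genes averaged. K113 and K137 had higher averages of the proapoptotic genes than any state mean, 9.54 and 9.69. These averages weight genes on a scale that is not per length, so only their changes between states carry meaning.

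Mcl1, whose protein turns over within a short time and is replaced by new translation, had its widest spread within states, with an SD of 0.39 in both SA and IBA. Its IBA animals ranged from 11.23 to 12.20 and its SA animals from 11.46 to 12.32. Between IBA and Ent the direction differed between experiments, with IBA higher by 0.51 in experiment 1 and by -0.24 in experiment 2. Bcl2l1 was highest in LAr at 11.73 ± 0.10 (SD, n = 5), and its other states lay between 11.53 and 11.61.

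**Figure D4:**
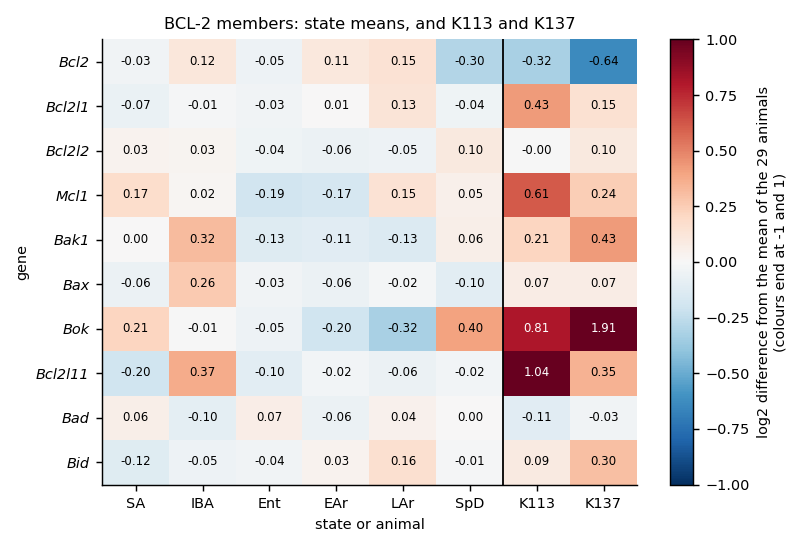
State means of the 10 members, and the values of K113 and K137, as log2 differences from the mean of the 29 animals tested (colours end at -1 and 1). IBA is positive for Bcl2l11, Bak1 and Bax at 0.37, 0.32 and 0.26, and Bok in K137 lies beyond the colour range at 1.91.

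Season was compared as the mean of the 4 hibernation states minus the mean of SA and SpD. No member was called at q below 0.001 (9.73% of all genes) and 3 of 10 at q below 0.05 (33.4%). Bok was lower in hibernation by a difference of -0.45 ± 0.13 (SE, q = 0.01207). Bcl2 was higher by 0.24 ± 0.09 (SE, q = 0.0314) and Bcl2l11 by 0.16 ± 0.05 (SE, q = 0.02826). The Bcl2l11 difference was not shared by all hibernation states. Ent, EAr and LAr differed from SpD by -0.08, -0.06 and -0.09, and from SA by 0.15, 0.17 and 0.14, none past q below 0.05. IBA differed from SpD by 0.39 and from SA by 0.63.

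The Bcl2 difference depended on single animals and on the weighting of animals. K130 had the lowest Bcl2 of the series at 9.83, and the other SpD animals ranged from 10.39 to 10.78. Without K130 the seasonal difference of Bcl2 was 0.15 and was no longer called (q = 0.07146), and it was also lost without K138 (0.23, q = 0.06366) or K139 (0.20, q = 0.09874) and with animals weighted by their quality (0.17, q = 0.05209). Bok was lower in hibernation at q below 0.05 in each alternative fit that held it. The experiments differed, however. In experiment 1 Bok averaged 7.06 in IBA, 7.11 in Ent and 7.07 in SpD (3 animals each). In experiment 2 IBA differed from SpD by -1.01 (2 animals each). The Bcl2l11 difference was lost with K113 and K137 included (0.14, q = 0.2752) and without K138, K140, K141, K6 or K84 in turn (0.14 to 0.15, q from 0.05407 to 0.06942).

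The 7 consecutive pairs of states share animals, so their counts are not independent. Between SA and SpD no member was called, against 0.0544% of genes at q below 0.001 and 10.5% at q below 0.05. Between EAr and Ent the member counts were 0 with backgrounds of 0.132% and 0.257%, and between LAr and EAr also 0 with 0.295% and 0.575%. Both steps from entrance through rewarming were contrasts in which few genes were called at all.

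Every other pair included IBA. In IBA against SA, 1 member was called at q below 0.001 (background 3.15%) and 3 at q below 0.05 (22.9%). In Ent against IBA there were 0 (0.746%) and 3 (13.1%), in IBA against LAr 0 (1.43%) and 3 (18.0%), and in SpD against IBA 0 (1.25%) and 3 (11.9%). When each pair was fitted with its 2 states alone, which leaves fewer animals to estimate the spread, every one of these member calls was lost, with q from 0.06408 to 0.1924. In the SpD pair the third member was Bcl2, lower in SpD by a difference of -0.41 (q = 0.04693), in place of Bak1. This Bcl2 call held in 10 of the 29 fits that left out 1 animal, and without K130 the difference was -0.22 (q = 0.1483).

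Sex was tested in the same fit. No member was called for sex, where 0.218% of genes passed q below 0.05, or for the interaction of sex with season, where 0% did. The lowest p among members was that of Bad, lower in males by a difference of -0.14 ± 0.05 (SE, limma q = 0.4994).

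The values of Bcl2l11 across the 29 animals were most like those of Brd1 (Pearson r = 0.81), Rnf4 (0.80) and Ext2 (0.80), which were the 3 highest among all named genes. Bax stood at rank 1191 in this order (r = 0.48), Bak1 at 1805 (r = 0.41), and Bad at 12098 (r = -0.54). The points share states, libraries and the batch correction, so these coefficients describe the table only.

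Around the family, 61 other cell death genes were listed by role, and 47 of them were in the table. At q below 0.001, 8 of the 47 were called across the 6 states, where 9.34% of all genes were. At q below 0.05, 25 were called, where 46.1% of all genes were. The same shares of all genes apply to the counts by list. By list, the calls at the stricter and the second threshold were 1 and 4 of 5 other BCL-2 relatives, 0 and 2 of 11 apoptosome and caspase genes, 1 and 4 of 6 inhibitor of apoptosis genes and their antagonists, 2 and 4 of 7 death receptor and necroptosis genes, and 4 and 11 of 18 partners and regulators of the BCL-2 proteins.

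Fadd, the adaptor of death receptors, was low in Ent, EAr and LAr, with means of 9.44 in Ent, 9.34 in EAr and 9.50 in LAr against 10.16 in SA, 10.08 in IBA and 9.96 in SpD. Its IBA excess was 0.73 ± 0.06 (SE, q = 1.172e-07).

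Cflar, which encodes the caspase-8 inhibitor FLIP, ran the other way. Its mean was 11.83 in LAr, 11.63 in Ent, 11.47 in EAr, 11.29 in SpD, 10.99 in IBA and 10.96 in SA, with EAr (11.13 to 11.96) and SpD (10.85 to 11.78) overlapping widely, and its IBA difference from the other hibernation states was -0.71 ± 0.14 (SE, q = 0.0008183). Ppp3ca, the catalytic subunit of calcineurin, the phosphatase that acts on BAD, was also lower in IBA by a difference of -0.29 ± 0.05 (SE, q = 0.000159).

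Bmf, a BH3-only gene outside the 10 members, was highest in EAr at 11.14 ± 0.18 (SD, n = 5) and lowest in SA at 10.19 ± 0.28 (SD, n = 4), with a hibernation difference of 0.44 ± 0.09 (SE, q = 0.0003934). In IBA it was lower than in the other hibernation states by a difference of -0.41 (q = 0.01488), opposite to its relative Bcl2l11. Ywhaz, a 14-3-3 protein of the type that binds BAD, was higher in hibernation by 0.29 ± 0.04 (SE, q = 2.974e-05), and Birc2, an inhibitor of apoptosis protein, was lower by a difference of -0.23 ± 0.05 (SE, q = 0.0005891). Ddit3, the stress factor CHOP, was highest in LAr at 9.73 ± 0.16 (SD, n = 5) and stood at 10.57 in K113.

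**Figure D5:**
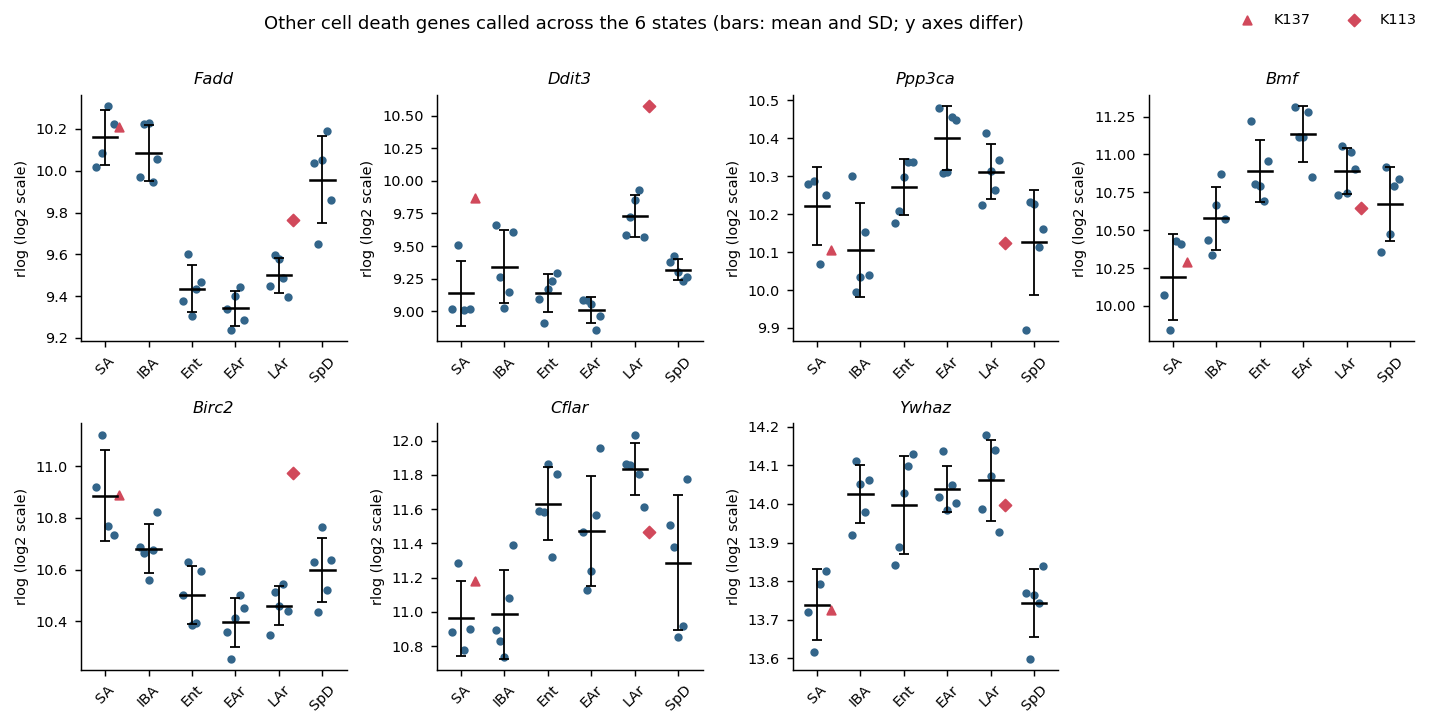
rlog values (log2 scale, y axes differ) of 7 other cell death genes called across the 6 states, by animal, drawn as for the members. Fadd is low in Ent, EAr and LAr, Cflar has its 3 highest means there, and Ddit3 is highest in LAr.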

How the data were processed

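Per the study and its processing notes, the authors applied cutadapt for trimming, HISAT2 against mitochondrial reads, and Salmon with the HiC_Itri_2 annotation for quantification. They summed transcripts to genes and made rlog values with DESeq2 from which limma removed the difference between experiments (versions were not given in the sources used here). The deposited values are thus on a log2 scale, already corrected for experiment. No counts or depths were used. Each library was 1 fragment of 1 squirrel, so errors hold variation among squirrels together with that of fragment, library and sequencing. These parts cannot be told apart.

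Tests used limma (version 3.58.1, under R 4.3.3) on the deposited log2 values of all 12863 genes in 29 animals. State, sex and experiment were terms, the prior variance followed intensity, and p-values were adjusted per contrast by Benjamini-Hochberg. It stands in for the study's count test, and the degree of freedom already spent on the correction is not counted. Across the states it called a smaller share of genes at q below 0.001 than the study reported. The authors had kept genes reaching an rlog of 7 in several animals, which all 10 members passed, and no filter was added. The code was checked on simulated data with shifts larger than the differences between states seen in the members. Its power at the sizes seen here was not tested. Figures used matplotlib.

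The members and all lists were chosen with earlier results of these data known. Named were all members, the other listed genes called across states at q below 0.001, and the 3 genes most like each called member; 1 of the called genes is counted but not reported here. The fits were repeated in all 31 animals, dropping experiment or sex from the model, with other variance priors, animal weights, experiment 2 only, a minimum mean of 8, median centring, a threshold of 0.05, only the 2 groups compared, and each animal left out. Removal of K130 with K113 and K137 was added after seeing the data. Symbols of 10 members matched RefSeq; no sequence or coordinate was used. Strand was not considered, and Bcl2, Bcl2l1 and Bcl2l2 overlap other annotated genes there.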

Additional observations from a re-analysis of the deposited data

Results flagged for a closer look

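Of 60 sets of animals of 1 state for 1 member, 4 held an animal set apart from the rest by its gap to the nearest, where chance gives about 1 in 20. Bcl2l11 was at 10.79 in K113, with the other LAr animals between 9.55 and 9.84, and Bid was at 9.87 in K137, with the other SA animals between 9.40 and 9.50. Bax was at 9.05 in K138 of SA, with the others between 9.35 and 9.44, and Bad was at 10.88 in K156 of EAr, with the others between 10.66 and 10.69. K113 lay above the rest of LAr for 5 members, below for 2 and within for 3. K137 lay above the rest of SA for 4, below for 1 and within for 5. Outside the range of their state were thus 7 of 10 members in K113, against 72.9% of all genes. In K137 they were 5 of 10, against 63.4% of all genes, so neither share of members was above that of all genes. The proximal tubule marker means of K113 and K137 were 13.68 and 14.19, and the part of this in the member values was not tested.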

How the results depend on the processing

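Calls at q below 0.001 moved as follows, and the cause was not tested. Across the 6 states 1 member became 0 in all 31 animals and in experiment 2 only, 2 with animal weights, and 0 to 1 leaving out each animal (0 without K104 or K4). IBA against SA went from 1 to 0 in all 31 animals, experiment 2 only and only the 2 groups compared, and 0 to 1 leaving out each animal (0 without K104). IBA against the other hibernation states went from 2 to 0 in all 31 animals and experiment 2 only, 1 with no term for experiment and with median centring, and 0 to 2 leaving out each animal (0 without K104, 1 without K1, K4, K7, K2, K111, K156 or K165). From 0, Ent against IBA gave 1 with no sex term and 2 with weights, IBA against LAr 2 and SpD against IBA 1 with weights, and the seasonal contrast 1 in experiment 2 only. At the threshold of 0.05 each of these gave 3. Without K130, K113 and K137, a setting chosen after seeing the data, the counts across the 6 states, in the 7 pairs, by season and in IBA against the other hibernation states were the same. In experiment 2 only, pair calls at 0.05 were also lost for Bak1, Bax and Bcl2l11 in Ent against IBA, Bax and Bcl2l11 in SpD against IBA, and Bak1 in IBA against SA. No direction of a called member reversed. With K113 and K137 included, Bcl2l11 was 9.87 in LAr and 9.66 in SA, and Bid 9.54 in SA.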
